A study of Homo sapiens with 34 samples.

Results

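Posterior primitive streak (PPS) cells at day 1 were compared with undifferentiated cells of the same line. The comparison took the libraries labelled PPS at 24 h and those labelled as control, which are 4 of 34 wild-type libraries, 2 on each side. All were made from ESI017, an established human embryonic stem cell line, so every value describes 1 line. PPS cells were kept for 24 h in E6 medium with CHIR99021, an activator of Wnt signaling, at 6 µM, with 40 ng/ml of BMP4, with bFGF (20 ng/ml), and without activin. Control cells stayed in mTeSR PLUS, a medium that maintains pluripotency, and their labels give 48 h. The sides therefore differ in basal medium and labelled time as well as in factors, and the effects of these cannot be told apart. Mid primitive streak (MPS) cells, which received the PPS factors plus 30 ng/ml activin, served as a day 1 reference. So did anterior primitive streak (APS) cells, which had CHIR99021 at 4 µM, activin at 30 ng/ml and the same bFGF but no BMP4, and each reference had 2 libraries at 24 h. The labels do not say whether the libraries of a condition came from separate cultures. The study calls them biological replicates but does not say how they were kept apart. The p-values therefore measure only the spread between libraries of the same condition, estimated over all 34 libraries. The RNA came from whole cultures, in which fewer cells of a type and less RNA per cell cannot be told apart.

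The primitive streak is the site at which epiblast cells leave the epithelium to form mesoderm and endoderm. In textbook embryology, Wnt signaling induces the streak, BMP is strongest at its posterior end, and Nodal, which activin mimics through the same receptors, patterns its anterior end. Posterior streak cells give rise to extraembryonic and lateral mesoderm, and HOX genes turn on in order along each cluster.

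Levels are given as CPM, the estimated counts of a gene scaled to a common total for every library, for replicate 1 and then replicate 2. CPM is not corrected for gene length, so levels are compared within a gene only. The 4 libraries held between 16611339 and 22145632 counts, within the 15522780 to 23439799 of all 34. Mitochondrially encoded genes took 4.41% and 5.30% of the control counts and 7.13% and 9.03% of the PPS counts, in a range of 3.55% to 9.28% over all libraries. Ribosomal protein genes took 4.63% and 4.70% of the control counts and 3.83% and 2.52% of the PPS counts, in a range of 2.51% to 5.14%. The part of these shares in the results was not tested. Replicates correlated at 0.960 in PPS and 0.977 in the control (Pearson's r of log CPM across genes, which are not independent replicates), and the PPS value was the lowest of the 17 conditions. A gene with at most 3 counts in both libraries of a group was treated as being at the count floor. A fold against that group was taken against 3 counts in each library and is given as a lower bound. It does not cover spread between libraries, and where some counts were seen it may not cover counting error.

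After 1 day in PPS medium, 2938 genes were higher and 2400 were lower than in the control, out of 17895 tested (edgeR quasi-likelihood test, Benjamini-Hochberg adjusted p under 0.05). This is 29.8% of tested genes, 16.4% higher and 13.4% lower, the background for the counts of gene lists against the control. The median log2 fold change over all genes was 0.01. Among the genes called, 1881 rose and 1269 fell by more than 1 on the log2 scale, and 673 rose and 335 fell by more than 3. There were 200 genes at the count floor in the control that averaged at least 1 CPM in PPS, and 89 genes at the floor in PPS that averaged at least 1 CPM in the control. The genes with the largest fitted rises were, in order, EVX1, SP5, HOXB6, CDX1, HOXB9, TBXT, FOXF1, MSGN1, HOXA3, CDX2, MSX1, ANKRD1, HOXB4, HOXA9 and GATA4, of which all but ANKRD1 encode transcription factors. The largest fitted falls were in AL139300.1, FOXD3, SOX2, PKDCC, HES3, LEFTY1, SOX21, TOX, ADAMTS8, PRDM14, USP44, OTX2, LRAT, ANO1 and POU3F1, which include factors of pluripotency and of anterior ectoderm. Across all 17 conditions, 6 of the 15 leading rises had their highest mean in PPS at day 1, and 9 of the 15 leading falls had it in the control. These genes were picked for their difference between PPS and the control, which favors such peaks, so the counts are a description only.

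**Figure D1:**
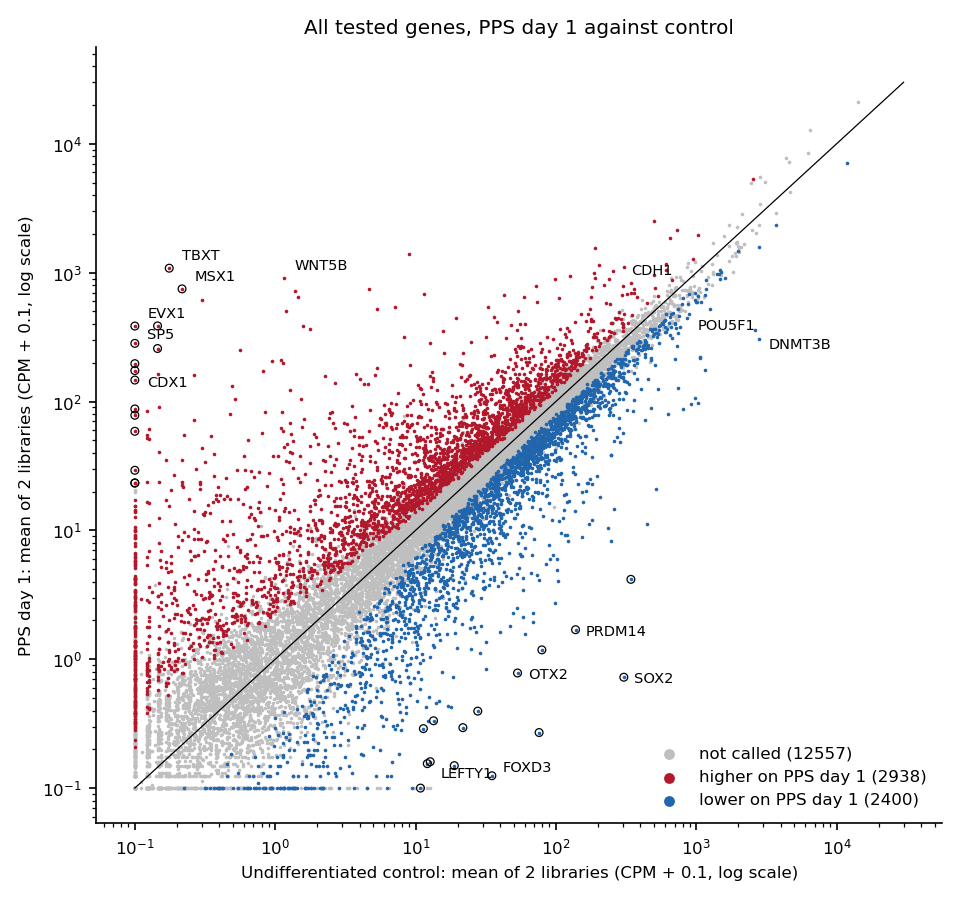
Mean level of each of the 17895 tested genes in the 2 control libraries (x axis) and the 2 PPS libraries (y axis), as CPM + 0.1 on log scales; red genes were higher and blue genes lower in PPS by edgeR, and circles mark the 15 largest rises and 15 largest falls. TBXT, EVX1, SP5, CDX1 and MSX1 stand near 0 on the control axis, while SOX2, PRDM14, FOXD3 and OTX2 lie far below the diagonal.

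The promoters of leading genes are shown because these genes had the largest rises. RefSeq (GRCh38.p14) promoters, taken as 250 bases before and 50 after a start site, were used for 9 of the 15 genes that rose most, with 16 start sites in all. They were searched on both strands for CTTTGAT, a core site of the TCF/LEF factors that act in Wnt signaling, for GGCGCC, a site bound by SMAD1/5, and for TCACACC, a T-box core site. CTTTGAT was found at 1 of the 16, in SP5, and in 2.62% of all 35116 promoters. GGCGCC was found at 4, in HOXA3 and HOXA9, and in 19.2% of all promoters, and TCACACC at 0, against 3.45% of all promoters. A match describes the letters only. The promoters of SP5 (chr2:170715087-170715386, plus strand), with CTTTGAT in capitals, of HOXA9 (chr7:27165488-27165787, minus strand), with GGCGCC in capitals, and of EVX1 (chr7:27242552-27242851, plus strand), the gene with the largest fitted rise and none of these motifs, read 5′ to 3′ as follows.
SP5: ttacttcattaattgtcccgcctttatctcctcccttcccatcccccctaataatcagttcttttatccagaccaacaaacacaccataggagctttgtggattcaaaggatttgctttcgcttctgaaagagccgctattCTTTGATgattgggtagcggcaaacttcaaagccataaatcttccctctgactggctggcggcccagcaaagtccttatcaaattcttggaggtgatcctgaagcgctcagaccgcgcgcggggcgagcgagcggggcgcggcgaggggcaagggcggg
HOXA9: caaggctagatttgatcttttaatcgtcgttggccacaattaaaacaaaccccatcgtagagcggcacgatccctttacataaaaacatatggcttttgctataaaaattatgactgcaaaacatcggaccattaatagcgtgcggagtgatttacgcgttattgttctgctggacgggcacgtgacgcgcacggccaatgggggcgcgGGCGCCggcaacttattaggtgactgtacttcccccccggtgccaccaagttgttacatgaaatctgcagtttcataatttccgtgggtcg
EVX1: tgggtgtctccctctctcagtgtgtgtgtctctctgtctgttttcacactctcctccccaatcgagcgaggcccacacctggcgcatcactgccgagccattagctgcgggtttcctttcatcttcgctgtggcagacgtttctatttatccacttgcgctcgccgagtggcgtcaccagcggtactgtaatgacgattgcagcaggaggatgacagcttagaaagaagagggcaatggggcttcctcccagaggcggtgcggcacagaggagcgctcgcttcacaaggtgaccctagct

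Streak factors were high in PPS cells. Of 21 primitive streak and nascent mesoderm factors, all tested, 17 rose and 1 fell, with a median log2 fold change of 6.19. TBXT, the T-box factor that marks the streak, also called Brachyury (ENSG00000164458, GRCh38 chromosome 6, 166157656 to 166168700), was at 0.0452 and 0.106 CPM in the control and at 1041 and 1125 CPM in PPS, at least 7339.6-fold higher. MIXL1, a homeobox factor of the early streak, stood at 1.22 and 1.49 CPM in the control and at 521 and 763 CPM in PPS (log2 fold change 8.91 ± 0.59 SE, adjusted p = 1.94e-10). In both genes the PPS libraries lay far above the control libraries. EVX1, a homeobox gene of the posterior streak (chromosome 7, 27242700 to 27250493), had no counts in either control library and 311 and 459 CPM in PPS, at least 2609-fold higher. SP5, a zinc finger factor and direct Wnt target (chromosome 2, 170715337 to 170718078), rose from no counts to 193 and 372 CPM, at least 1915-fold. CDX1, which regulates HOX genes, rose from no counts to 142 and 205 CPM, at least 1177-fold. Its paralog CDX2 is a trophectoderm factor as well as a posterior one. CDX2 rose from 0.0903 and 0 CPM to 362 and 410.5 CPM, at least 2617-fold. MSGN1, a factor of presomitic mesoderm, rose from no counts to 92.1 and 64.1 CPM, at least 529-fold. EOMES, a T-box factor of the early streak and endoderm, went from 0.316 and 0.266 CPM to 12.2 and 31.0 CPM (log2 fold change 6.19 ± 0.91 SE, adjusted p = 1.74e-05). The member that fell, named after its values were seen, was ZIC2, a zinc finger factor, which went from 199.5 and 143 CPM to 6.00 and 16.4 CPM.

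**Figure D2:**
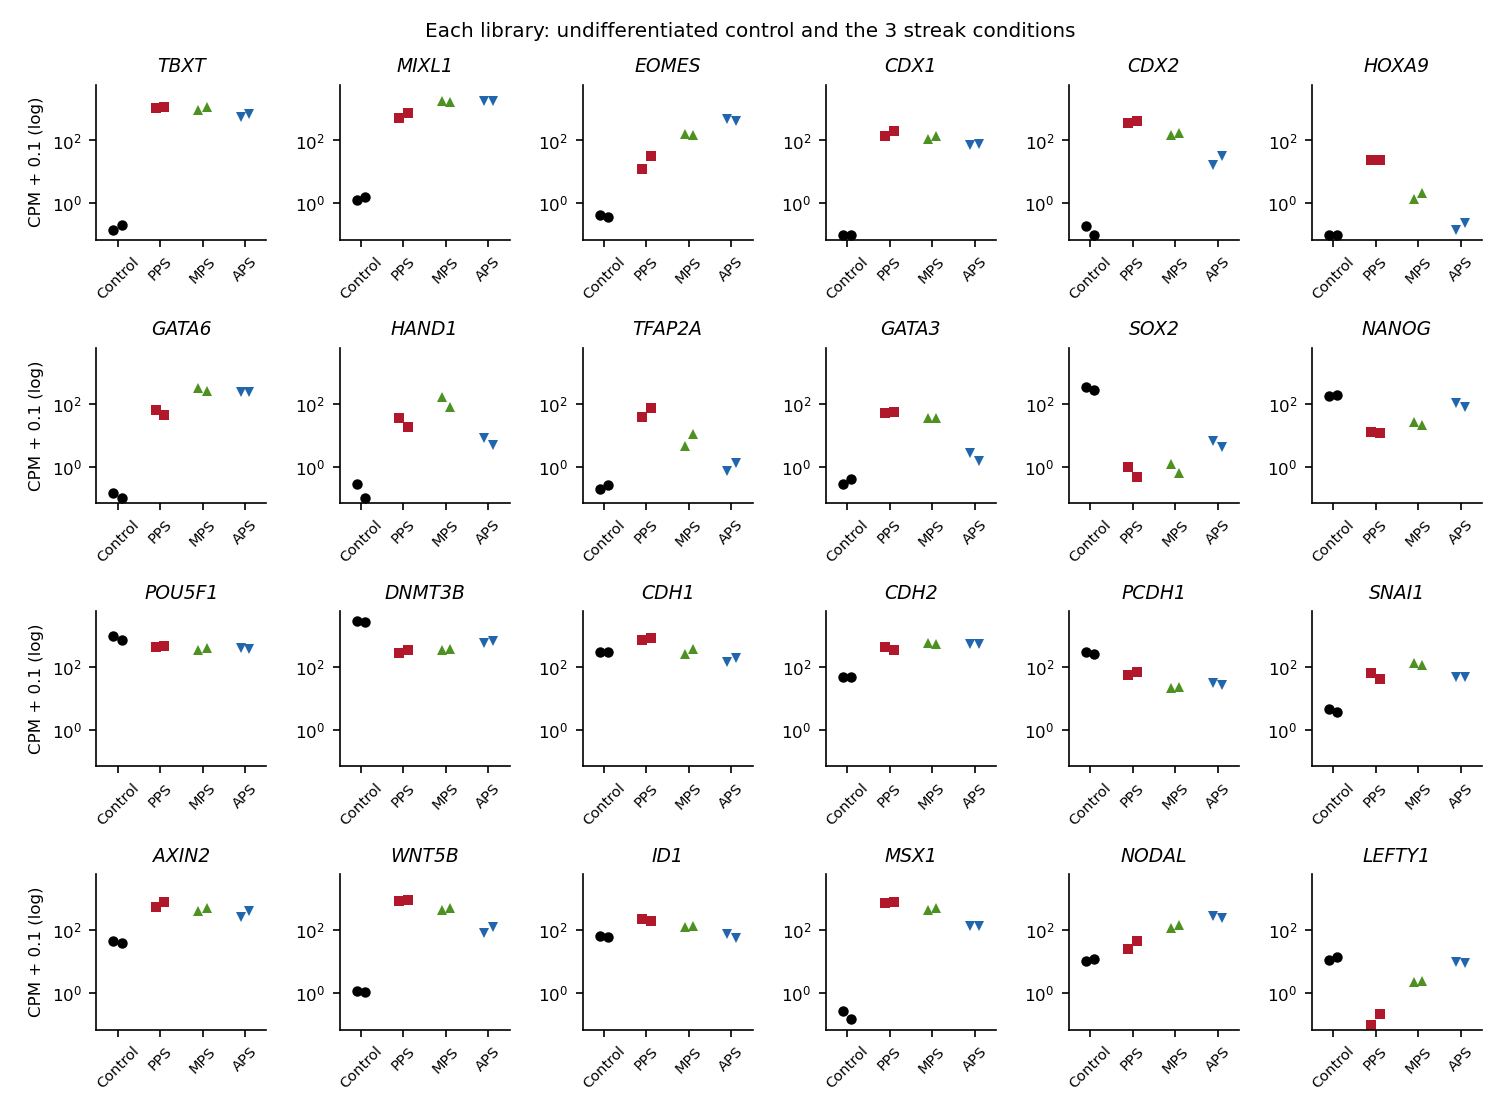
CPM + 0.1 (log scale) of 24 genes in each of the 2 libraries of the control, PPS, MPS and APS cells; each point is 1 library. CDH1 and TFAP2A are highest in PPS, and EOMES, MIXL1, GATA6 and NODAL are lower in PPS than in MPS or APS.

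The HOX genes, which set position along the body axis, rose nearly as a whole. Of 39 genes in the 4 clusters, 37 were tested, 34 rose and 0 fell. The 3 tested that were not called, named after their values were seen, were HOXC9, HOXC10 and HOXD12, at or under 0.361 CPM in every control and PPS library. The median log2 fold change of those tested was 5.86 with genes at the floor set to their bound. In PPS the summed level was 337 and 276 CPM over the HOXA cluster, 656 and 540.5 CPM over HOXB, 44.6 and 29.8 CPM over HOXC and 45.8 and 54.0 CPM over HOXD. The same sums in the control were 0.0903 and 0.106 CPM for HOXA, 0.858 and 0.213 CPM for HOXB, 0.0452 and 0.0532 CPM for HOXC and 0.452 and 0.160 CPM for HOXD. Each cluster was thus close to 0 in the control and present in PPS. HOXB6, from the middle of its cluster, rose from no counts to 223 and 169.7 CPM, at least 1333-fold, and HOXB9 from no counts to 159.8 and 133 CPM, at least 994-fold. HOXA3 rose to 52.7 and 64.5 CPM, at least 397-fold, and HOXB4 to 28.1 and 30.3 CPM, at least 198-fold. HOXA9 was at 23.3 CPM in each PPS library and had no counts in the control, at least 158-fold higher. Neighboring HOX genes overlap on the same strand in the annotation, HOXA3 with HOXA4, HOXA5 and HOXA6 for example, so the split of reads between neighbors is uncertain. Both PPS libraries lay above both control libraries in 36 of the 37 HOX genes tested and overlapped them in 1. Of all genes tested, 30.5% lay above and 62.5% did not overlap in one direction or the other. HOX genes were close to 0 in the control, so they had almost no room to fall. They could pass the filter on low counts only through conditions where they were higher. The 0 that fell and the separation are therefore a description only.

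**Figure D3:**
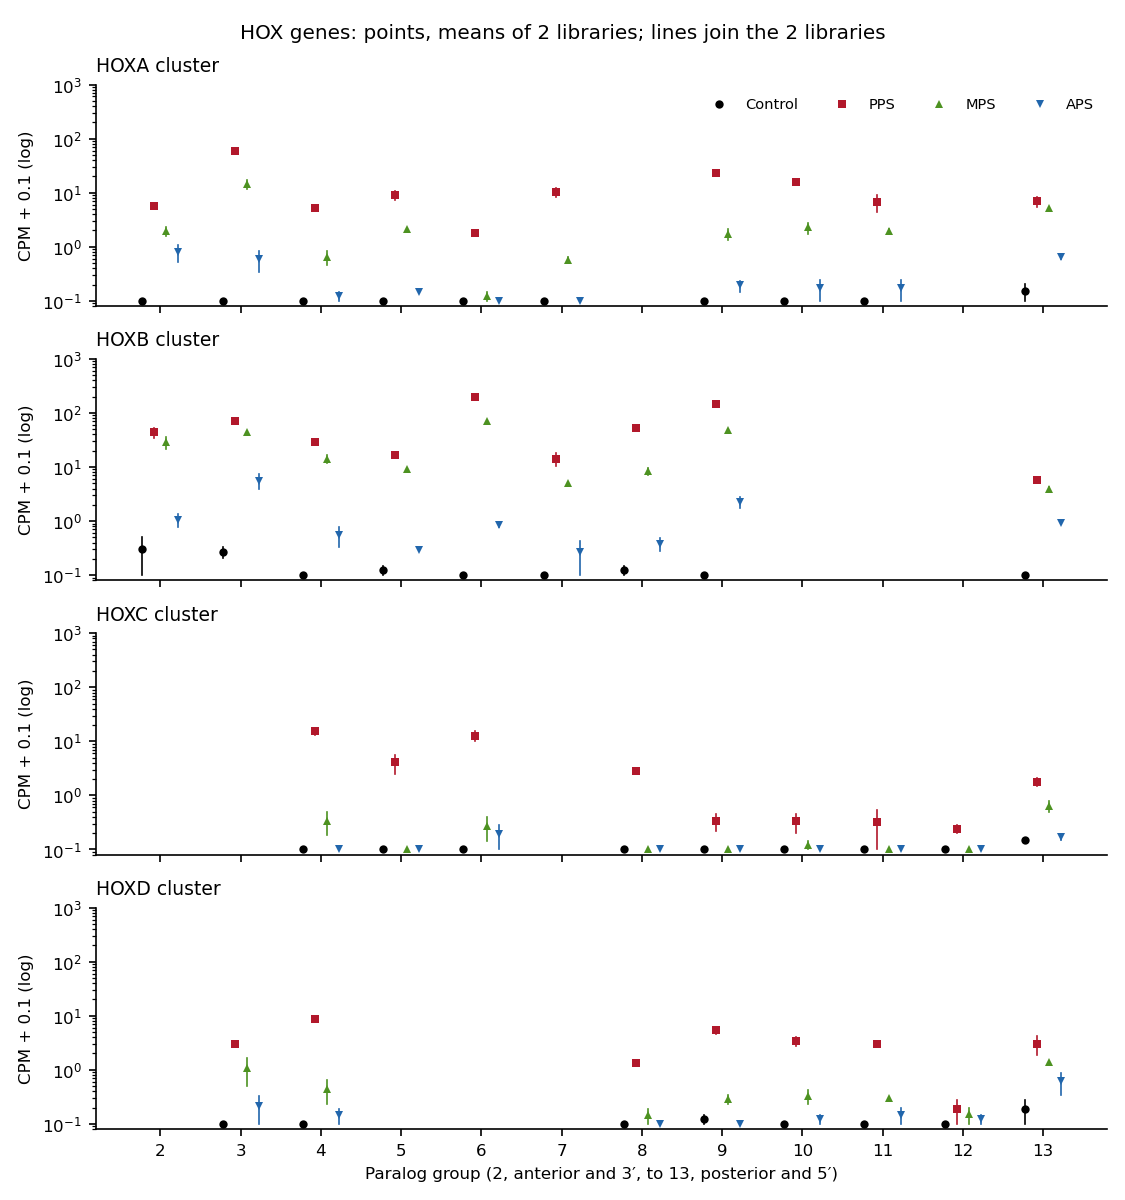
CPM + 0.1 (log scale) of HOX genes by cluster and paralog group (2 to 13); points are means of 2 libraries, lines join the 2 libraries, and the control, PPS, MPS and APS cells have a symbol each. Summed HOXC levels were 44.6 and 29.8 CPM in PPS and 0.564 and 1.37 CPM in MPS, and the control lies near the bottom in every cluster.

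Genes of lateral and extraembryonic mesoderm rose as well. Of 18, all tested, 14 rose and 0 fell, with a median log2 fold change of 4.27 with floor genes at their bound. FOXF1, a forkhead factor of lateral plate mesoderm, rose from no counts to 93.4 and 81.6 CPM, at least 593-fold. GATA6, a zinc finger factor of mesoderm and endoderm, rose from 0.0452 and 0 CPM to 65.1 and 44.8 CPM, at least 373-fold. HAND1, a bHLH factor of lateral and extraembryonic mesoderm, rose from 0.181 and 0 CPM to 35.0 and 18.8 CPM (log2 fold change 8.04 ± 0.90 SE, adjusted p = 4.42e-07). TBX3, a T-box factor, rose from 1.54 and 0.638 CPM to 514 and 494 CPM (log2 fold change 8.84 ± 0.36 SE, adjusted p = 2.71e-13). In each of these the groups were far apart. The counts of GATA4 are split over 2 identifiers, of which the one with most counts holds 64.1%. Their sum was 0 CPM in the control and 22.1 and 45.02 CPM in PPS. ANKRD1, an ankyrin repeat protein known as a YAP target, rose from 0.0903 and 0 CPM to 375 and 140.0 CPM, at least 1747-fold, with a wide gap between the PPS replicates.

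Markers of other cell types that such cultures can hold were mixed. Of 18 amnion genes 17 were tested, 11 rose and 2 fell, with a median log2 fold change of 4.20 with floor genes at their bound. TFAP2A, a factor of amnion and surface ectoderm, rose from 0.0903 and 0.160 CPM to 37.4 and 72.5 CPM, at least 373-fold against the floor. Control replicate 2 stood at the floor itself, so counting error could make this fold smaller. GATA3, shared with trophoblast, rose from 0.181 and 0.319 CPM to 51.5 and 56.5 CPM (log2 fold change 7.77 ± 0.58 SE, adjusted p = 1.29e-09). The list shares TBX3, MSX2, BAMBI and DLX5 with the BMP list and TBX3 and ISL1 with the lateral mesoderm list. Its summed level was 66.2 and 55.8 CPM in the control and 1257 and 1175 CPM in PPS. Much of the PPS sum came from TBX3 and MSX2, whose levels are given with the lateral mesoderm and BMP lists. VTCN1, an amnion marker, was at or under 0.226 CPM in every control and PPS library, and TFAP2B at or under 0.296 CPM. The members that fell, named after their values were seen, were GABRP and IGFBP3, and without PPS replicate 2 the number that fell was 1. Of 16 trophoblast genes, 9 were tested, 2 rose and 2 fell, and the sum was 94.5 and 74.9 CPM in the control and 103 and 119 CPM in PPS. Those counts rested on single libraries, with 1 gene higher without PPS replicate 2 or either control replicate and none lower without PPS replicate 1.

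Of 14 definitive endoderm genes, 13 were tested, 5 rose and 1 fell, and the sum was 66.4 and 58.6 CPM in the control and 125 and 102 CPM in PPS. Without control replicate 2, 3 rose, and without PPS replicate 1, 0 fell. SOX17, the defining endoderm factor, stood at 0.247 and 0.602 CPM in PPS and FOXA2 at 0.0989 and 0.361 CPM, and neither passed the test against the control (adjusted p = 0.48 and 0.418). With no filter on low counts both were called, SOX17 higher (log2 fold change 3.76, adjusted p = 0.000523) and FOXA2 lower (-1.71, adjusted p = 0.00601). CXCR4, a chemokine receptor that nascent mesoderm also carries, rose from 1.04 and 1.38 CPM to 59.8 and 19.5 CPM (log2 fold change 5.06 ± 0.68 SE, adjusted p = 5.94e-06). Of 16 blood and endothelial genes, 14 were tested, 2 rose and 3 fell, with a sum of 199.7 and 244 CPM in the control and 306 and 339 CPM in PPS. Only 1 was lower without control replicate 2 or either PPS replicate. LMO2, a cofactor of blood progenitors, rose from 0.993 and 1.06 CPM to 77.0 and 41.5 CPM and RUNX1, a factor of blood stem cells, from 0.768 and 0.585 CPM to 13.3 and 14.3 CPM. TAL1 and GATA1, the defining blood factors, were at or under 0.106 CPM and were not tested. Of 12 primordial germ cell genes, 11 were tested, 3 rose and 3 fell, with a sum of 226 and 233 CPM in the control and 65.5 and 55.0 CPM in PPS. The number that rose was 1 without control replicate 1 and 0 without control replicate 2. The part of such cells in the other results was not tested.

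Pluripotency genes fell, to unequal extents. Of 25, all tested, 17 fell and 2 rose, with a median log2 fold change of -1.68, and their sum went from 15068 and 14726 CPM to 5936 and 6118 CPM. SOX2, a core pluripotency factor that neural cells also need (chromosome 3, 181711925 to 181714436), went from 331 and 278 CPM to 0.889 and 0.361 CPM (log2 fold change -8.85 ± 0.94 SE, adjusted p = 2.1e-07). NANOG, a homeobox factor that keeps cells undifferentiated, went from 171 and 188 CPM to 12.4 and 11.4 CPM (log2 fold change -3.90 ± 0.51 SE, adjusted p = 4.77e-06). POU5F1, which encodes OCT4, fell by less. Its counts are split over 4 identifiers, and their sum was 1625 and 1348 CPM in the control and 727 and 815 CPM in PPS (log2 fold change -0.91 ± 0.18 SE, adjusted p = 0.000392, a sum chosen after seeing the data). PRDM14, a repressor of differentiation, went from 139.5 and 136 CPM to 1.38 and 1.81 CPM, and USP44, a deubiquitinase, from 331 and 354 CPM to 4.10 and 4.03 CPM. FOXD3, a forkhead factor of pluripotent cells, went from 40.7 and 29.0 CPM to 0.0494 and 0 CPM, at least 212-fold lower. In all of these the PPS libraries lay below the control libraries. The members that rose, named after their values were seen, were SALL4, a zinc finger factor, from 351 and 330.4 CPM to 739 and 661 CPM, and FOXH1, a partner of SMAD2/3, from 94.7 and 72.3 CPM to 174 and 238 CPM. Without control replicate 2 or PPS replicate 2, 1 of the list rose. LIN28A, a regulator of let-7 microRNAs, had 2239.7 and 2163 CPM in the control and 1671 and 1659 CPM in PPS and did not pass the test (adjusted p = 0.078), but was called lower by DESeq2 (adjusted p = 0.0436).

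Of 16 neural genes, 12 were tested, 4 fell and 2 rose. Their sum was 743 and 631 CPM in the control and 745 and 719.6 CPM in PPS. The list includes SOX2, which fell as given above, and NES, which rose and was named after its values were seen. The sum therefore holds opposite changes. OTX2, a homeobox factor of the epiblast and forebrain, went from 56.4 and 50.01 CPM to 0.642 and 0.722 CPM (log2 fold change -6.25 ± 0.67 SE, adjusted p = 2.58e-07). PAX3, a paired box factor of the dorsal neural tube and somites, rose from 0 and 0.0532 CPM to 53.8 and 68.5 CPM, at least 414-fold. PAX6 and SOX1, defining neural factors, were not tested, being too low. Among the leading falls outside the lists, SOX21, a SOX factor, was at 13.2 and 10.8 CPM in the control and at 0.0494 and 0.0602 CPM in PPS, at least 73.2-fold lower. HES3, a bHLH factor, went from 24.1 and 13.5 CPM to 0.0988 and 0 CPM, at least 114-fold lower, but was not called by DESeq2 (adjusted p = 0.469). LRAT, which stores retinol as esters, went from 66.3 and 92.4 CPM to 0.840 and 1.32 CPM, and PKDCC, a secreted kinase, from 81.7 and 70.0 CPM to 0.0988 and 0.241 CPM. AL139300.1, at 7.06 and 14.4 CPM in the control and with no counts in PPS, overlaps KLC1 and APOPT1 on the same strand, so its reads are uncertain, and it was not called without PPS replicate 1 (adjusted p = 0.0549) or PPS replicate 2 (0.052).

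Among 11 DNA methylation genes, all tested, 5 rose and 3 fell. DNMT3B, a de novo methyltransferase, went from 2931 and 2632 CPM to 275 and 336 CPM (log2 fold change -3.16 ± 0.19 SE, adjusted p = 3.88e-11), and DNMT3A from 237 and 193 CPM to 95.6 and 103 CPM (log2 fold change -1.09 ± 0.14 SE, adjusted p = 2.11e-06). TET2, which oxidizes methylcytosine, rose from 4.29 and 4.47 CPM to 19.8 and 27.9 CPM (log2 fold change 2.46 ± 0.26 SE, adjusted p = 2.58e-07). The number that rose was 3 without PPS replicate 2 or control replicate 1 and 2 without control replicate 2. DNMT1, the maintenance enzyme, was at 339 and 317 CPM in the control and 317 and 411 CPM in PPS and did not pass the test (adjusted p = 0.44).

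Readouts of BMP and Wnt signaling rose. Of 17 BMP targets and antagonists, all tested, 16 rose and 0 fell, with a median log2 fold change of 3.64. ID1, an inhibitor of bHLH factors and direct SMAD1/5 target, rose from 66.3 and 62.4 CPM to 236 and 203 CPM (log2 fold change 1.79 ± 0.47 SE, adjusted p = 0.00573), but was not called without control replicate 2 (adjusted p = 0.0571). ID2, its paralog, rose from 14 and 12.5 CPM to 159.8 and 127 CPM (log2 fold change 3.46 ± 0.28 SE, adjusted p = 5.27e-09). MSX1, a homeobox factor, rose from 0.181 and 0.0532 CPM to 712 and 783 CPM (log2 fold change 12.53 ± 0.67 SE, adjusted p = 1.39e-11), and its paralog MSX2 from 1.22 and 0.213 CPM to 177 and 167 CPM. For all of these the PPS libraries lay above the control. NOG, a secreted BMP antagonist, rose from 0.0452 and 0.0532 CPM to 36.3 and 45.2 CPM, at least 276-fold.

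Of 20 Wnt feedback and target genes, all tested, 14 rose and 4 fell, with a median log2 fold change of 4.18. AXIN2, a scaffold of the complex that destroys β-catenin, rose from 45.7 and 39.2 CPM to 549 and 795 CPM (log2 fold change 4.00 ± 0.36 SE, adjusted p = 1.65e-08). LEF1, a factor through which β-catenin acts, rose from 0.948 and 1.12 CPM to 197 and 199 CPM (log2 fold change 7.60 ± 0.42 SE, adjusted p = 1.72e-11). DKK1, a secreted inhibitor of Wnt receptors, rose from 0.135 and 0.266 CPM to 717 and 517 CPM, and NKD1, an intracellular inhibitor, from 9.99 and 7.71 CPM to 1093 and 1714 CPM. Thus activating and inhibitory members both rose. Those that fell, named after their values were seen, were the TCF factors TCF7L1, from 259 and 213 CPM to 10.97 and 9.57 CPM, and TCF7L2, from 85.9 and 88.0 CPM to 20.6 and 20.9 CPM, with the receptor LGR4 and the secreted antagonist WIF1, the last not called without PPS replicate 1 (adjusted p = 0.0616). Of 19 Wnt ligands, 14 were tested, 9 rose and 0 fell. WNT5B, a ligand mostly of the noncanonical type, rose from 1.08 and 1.01 CPM to 874 and 937 CPM (log2 fold change 9.77 ± 0.59 SE, adjusted p = 6.49e-11), and WNT5A from 4.80 and 4.36 CPM to 910.2 and 577 CPM (log2 fold change 7.37 ± 0.35 SE, adjusted p = 2.63e-12). WNT3A, a canonical ligand of the streak, rose from 0 and 0.0532 CPM to 46.7 and 55.2 CPM, at least 346-fold. The counts of WNT3 are split over 3 identifiers, and their sum rose from 2.82 and 1.91 CPM to 33.0 and 51.0 CPM (log2 fold change 4.17 ± 0.32 SE, adjusted p = 7.28e-10, a sum chosen after seeing the data).

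Among 32 FGF ligands, receptors and feedback genes, 31 were tested, 16 rose and 5 fell, with a median log2 fold change of 1.32. FGF4, a ligand of the epiblast and streak, rose from 3.48 and 5.48 CPM to 121 and 154 CPM (log2 fold change 4.97 ± 0.38 SE, adjusted p = 1.78e-09), while the receptor FGFR2 went from 118 and 122 CPM to 10.1 and 8.20 CPM (log2 fold change -3.69 ± 0.37 SE, adjusted p = 9.74e-08). SPRY4, a feedback inhibitor, rose from 199.7 and 173 CPM to 1068 and 936 CPM (log2 fold change 2.45 ± 0.38 SE, adjusted p = 2.99e-05). FGF8, a streak ligand, had 1.97 and 1.81 CPM in the control and 2.96 and 6.57 CPM in PPS and did not pass the test (adjusted p = 0.217), but was called with no filter (adjusted p = 0.000859). DUSP6, an ERK phosphatase, was at 80.2 and 65.4 CPM in the control and 156 and 60.8 CPM in PPS (adjusted p = 0.26), and was called without PPS replicate 2 (adjusted p = 0.0476) and with no filter (0.0117). EGR1, an immediate early gene, was at 6.42 and 56.6 CPM in the control and at 121 and 509 CPM in PPS. It was lower in replicate 1 on both sides, and was called (adjusted p = 0.0487) but not without control replicate 1 (0.274) or PPS replicate 2 (0.348).

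The Nodal and activin pathway, whose ligand was not added to PPS medium, was divided. Of 21 genes, all tested, 6 rose and 6 fell, with a median log2 fold change of -0.09. NODAL itself rose from 10.3 and 12.1 CPM to 24.7 and 45.9 CPM (log2 fold change 1.68 ± 0.37 SE, adjusted p = 0.00128). LEFTY1, a Nodal inhibitor and target, went from 10.96 and 14.3 CPM to 0 and 0.120 CPM, at least 76.8-fold lower, and LEFTY2 from 7.79 and 9.21 CPM to 0.296 and 0.361 CPM (log2 fold change -4.65 ± 0.60 SE, adjusted p = 5.28e-06). TDGF1, the Nodal coreceptor, went from 738 and 877 CPM to 99.3 and 75.1 CPM (log2 fold change -3.19 ± 0.41 SE, adjusted p = 3.37e-06). The ligand thus rose while its feedback inhibitors and coreceptor fell. FST, which binds activin, rose from 22 and 16.4 CPM to 453 and 429 CPM (log2 fold change 4.54 ± 0.72 SE, adjusted p = 4.72e-05).

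**Figure D4:**
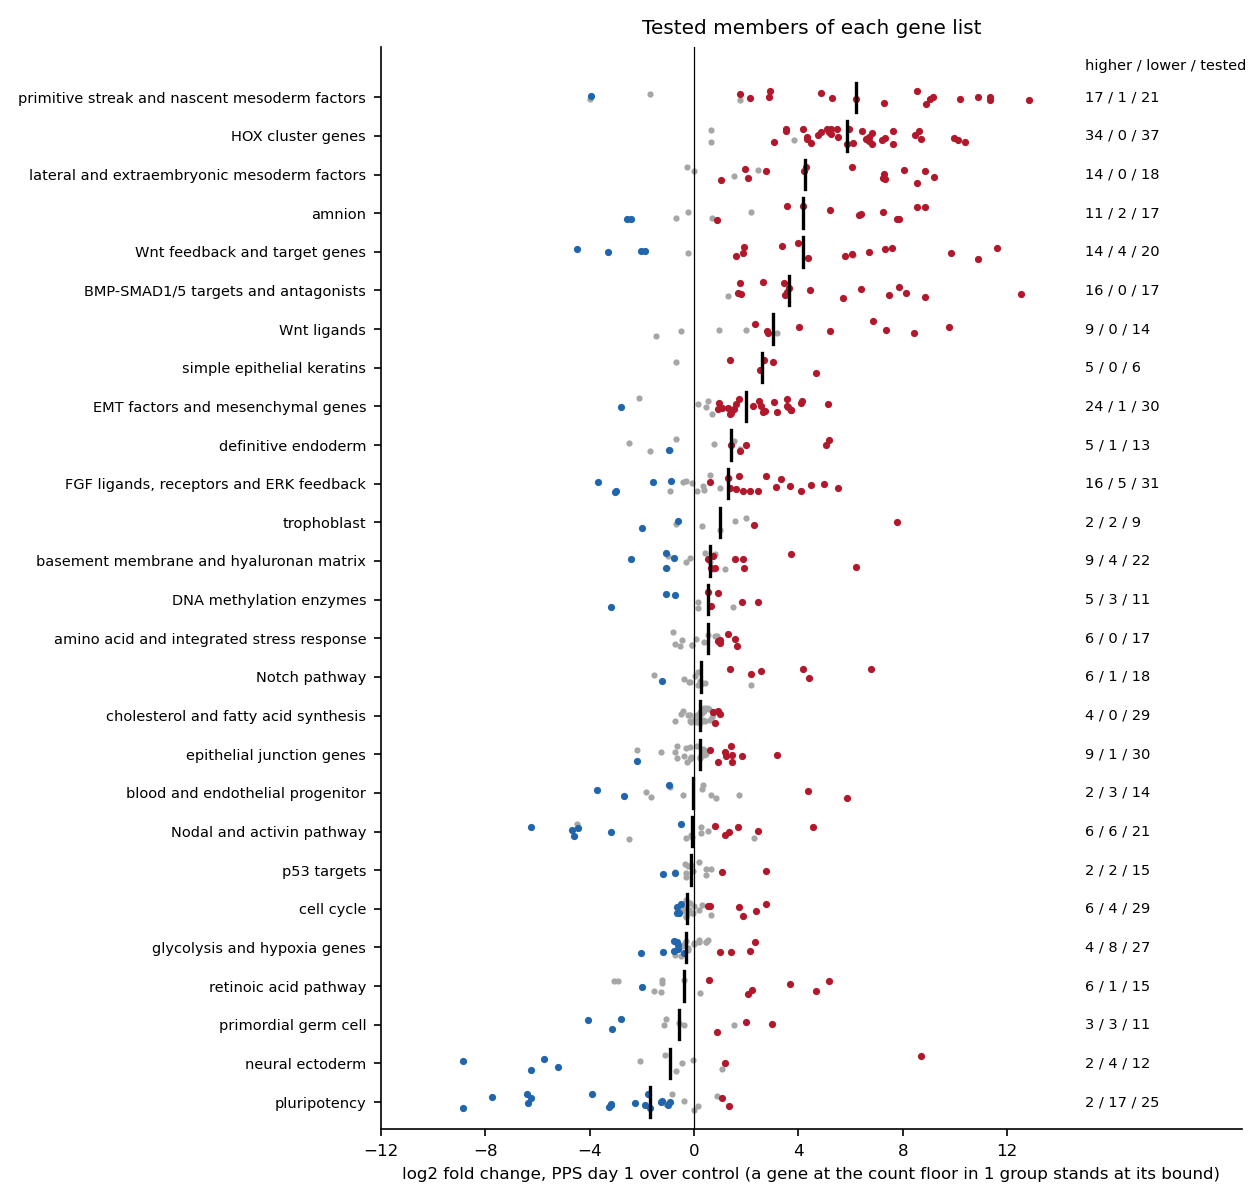
Log2 fold change (x axis, PPS over control) of every tested member of the 27 gene lists (rows), with genes at the count floor in 1 group at their bound; red points rose, blue points fell, gray points were not called, black bars are medians, and the numbers give genes higher, lower and tested. Streak, HOX, lateral mesoderm, amnion, Wnt and BMP lists lie mostly to the right, and pluripotency genes to the left.

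Transcripts of epithelial and of mesenchymal cadherins were both higher in PPS. These values are RNA and not protein. By immunostaining, the study reported early downregulation of E-cadherin protein across streak subtypes, with its level highest in PPS among the streak treatments. CDH1, which encodes E-cadherin, the adhesion molecule of epithelia (ENSG00000039068, chromosome 16, 68737292 to 68835537), was at 303 and 299 CPM in the control and at 717 and 861 CPM in PPS (log2 fold change 1.41 ± 0.26 SE, adjusted p = 0.000242), and its mean of 789 CPM was the highest of the 17 conditions. CDH2, which encodes the mesenchymal N-cadherin (chromosome 18, 27932879 to 28177946), was at 46.9 and 48.2 CPM in the control and at 433 and 357 CPM in PPS (log2 fold change 3.08 ± 0.16 SE, adjusted p = 8.69e-12). CDH3, which encodes P-cadherin, was at 177 and 149 CPM in the control and at 215 and 277 CPM in PPS (log2 fold change 0.62 ± 0.19 SE, adjusted p = 0.0185), a call lost without control replicate 2 (adjusted p = 0.173) or PPS replicate 2 (0.225) and with only the libraries compared (0.0606). Of 30 epithelial junction genes, all tested, 9 rose and 1 fell, with a median log2 fold change of 0.23. The number lower was 3 with no filter, with DESeq2 and with only the libraries compared, with or without a replicate block. A test for a fold of at least 2 left 2 higher. DSP, a desmosome protein, rose from 105 and 93.4 CPM to 795 and 976 CPM (log2 fold change 3.18 ± 0.29 SE, adjusted p = 2.47e-08). The gene that fell was PCDH1, a protocadherin, which went from 308 and 258 CPM to 56.5 and 67.9 CPM (log2 fold change -2.16 ± 0.51 SE, adjusted p = 0.00247). EPCAM, an epithelial adhesion molecule, was at 192 and 218 CPM in the control and at 246 and 227 CPM in PPS and did not pass the test (adjusted p = 0.547). The simple epithelial keratins rose in 5 of 6 tested, with KRT19 going from 84.0 and 62.0 CPM to 582 and 605 CPM (log2 fold change 3.05 ± 0.32 SE, adjusted p = 1.81e-07) and KRT8 from 231 and 174 CPM to 1346 and 955 CPM (log2 fold change 2.53 ± 0.31 SE, adjusted p = 2.01e-06).

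Of 30 EMT factors and mesenchymal genes, all tested, 24 rose and 1 fell, with a median log2 fold change of 1.99. The member that fell, SNAI3, was named after its values were seen and was not called without control replicate 1 (adjusted p = 0.0553) or PPS replicate 1 (0.108). SNAI1, the repressor that drives EMT in the streak, was at 4.61 and 3.55 CPM in the control and at 64.9 and 40.3 CPM in PPS (log2 fold change 3.70 ± 0.27 SE, adjusted p = 8.8e-10). VIM, which encodes the intermediate filament vimentin, was at 91.5 and 99.4 CPM in the control and at 383 and 232 CPM in PPS (log2 fold change 1.71 ± 0.33 SE, adjusted p = 0.00036). ZEB2, another EMT repressor, rose from 0.632 and 0 CPM to 15.3 and 8.26 CPM, and CDH11, a mesenchymal cadherin, from 8.97 and 11.6 CPM to 189 and 79.9 CPM. In all 4 of these genes that rose, PPS replicate 1 was the higher of the PPS libraries.

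In each of the remaining lists some members rose, where 16.4% of all tested genes were higher and 13.4% lower. The share higher was near that of all genes for cholesterol (13.8%), p53 (13.3%), glycolysis (14.8%) and cell cycle (20.7%) lists. It was 33.3% to 40.9% for the matrix, stress response, Notch and retinoic acid lists. Of glycolysis genes 29.6% were lower. Of 22 basement membrane and hyaluronan matrix genes, all tested, 9 rose and 4 fell, with HAPLN1, which links hyaluronan to proteoglycans, going from 1.49 and 2.82 CPM to 209 and 106 CPM. Without control replicate 2 the matrix counts were 5 and 2, and without PPS replicate 1 the number that fell was 2. Of 27 glycolysis and hypoxia genes 4 rose and 8 fell, with 4 lower without control replicate 1 and 3 without PPS replicate 2. SLC2A3, a glucose transporter, rose from 483 and 517 CPM to 2711 and 2312 CPM (log2 fold change 2.35 ± 0.28 SE, adjusted p = 1.35e-06). Cholesterol and fatty acid synthesis had 4 of 29 genes higher and 0 lower, with 1 lower without PPS replicate 1, PPS replicate 2 or control replicate 1. The amino acid and integrated stress response had 6 of 17 higher and 0 lower, but 3 higher without PPS replicate 1 or either control replicate, and 1 lower without PPS replicate 1. The p53 list had 2 higher and 2 lower of 15, and the cell cycle list 6 higher and 4 lower of 29, or 3 and 2 without control replicate 1 and with only the libraries compared. With a replicate block or DESeq2, 9 of the cell cycle genes were lower, and with the block and only the libraries compared 0 were. CDKN1A, an inhibitor of the cell cycle on both lists, rose from 17.4 and 8.63 CPM to 79.2 and 93.9 CPM (log2 fold change 2.75 ± 0.35 SE, adjusted p = 3.13e-06). The Notch list had 6 higher and 1 lower of 18 tested, the latter 0 without PPS replicate 1 or control replicate 1 and 2 without PPS replicate 2, with the ligand DLL1 and the somite clock gene HES7 among those that rose. HES7 went from 0 and 0.0532 CPM to 17.5 and 15.02 CPM, at least 110.1-fold higher. The retinoic acid list had 6 higher and 1 lower of 15, with the binding protein CRABP1 going from 88.7 and 69.3 CPM to 20.8 and 18.0 CPM. The number lower was 4 with no filter or only the libraries compared, with or without the block, 3 with DESeq2 and 2 with identifiers summed. CYP26A1, an enzyme that degrades retinoic acid, went from 2.30 and 1.01 CPM to 0.198 and 0.241 CPM. It was not called (log2 fold change -2.89 ± 1.11 SE, adjusted p = 0.0528), but was called lower with no filter, only the libraries compared, DESeq2 and identifiers summed (adjusted p = 4.5e-11, 0.0281, 0.0379 and 0.0461).

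Activin was the only labelled difference in factors between MPS and PPS cells. By edgeR 499 genes were higher and 599 lower in PPS than in MPS, 6.14% of those tested, 2.79% higher and 3.35% lower. The total of 1098 depended on single libraries, being 306 without PPS replicate 2 and 263 without MPS replicate 1. With only the PPS and MPS libraries it was 296, and with a replicate block added to that fit 2488, of which 1209 were higher and 1279 lower. Of 21 Nodal and activin genes 8 were lower and 0 higher, and of 21 streak genes 8 were lower and 1 higher. CER1, a secreted Nodal antagonist, was at 0.346 and 0 CPM in PPS and at 156 and 49.4 CPM in MPS (log2 fold change -9.13 ± 0.95 SE, adjusted p = 8.42e-06). GSC, the organizer homeobox gene, was at 0.395 and 0.602 CPM in PPS and at 30.1 and 26.4 CPM in MPS (log2 fold change -5.90 ± 0.43 SE, adjusted p = 4.5e-08). OTX2 was at 19.6 and 14.2 CPM in MPS (log2 fold change -4.70 ± 0.67 SE, adjusted p = 0.00012). These genes are known for anterior fates, and each was far lower in both PPS libraries. NODAL was at 117 and 144 CPM in MPS (log2 fold change -1.96 ± 0.36 SE, adjusted p = 0.00158). EOMES had 163 and 145 CPM in MPS (log2 fold change -2.91 ± 0.61 SE, adjusted p = 0.00488) and was not called without PPS replicate 1 (adjusted p = 0.057). GATA6 had 315 and 248 CPM in MPS (log2 fold change -2.43 ± 0.31 SE, adjusted p = 3.31e-05). TBXT was at 920.4 and 1152 CPM in MPS and did not pass the test (adjusted p = 1), with a 95% interval of the log2 fold change from -0.83 to 0.81 (t distribution, 17 degrees of freedom).

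Some HOX genes were higher in PPS than in MPS. Of 37 HOX genes tested 14 were higher and 0 lower. HOXC6 was at 15.5 and 9.85 CPM in PPS and at 0.0434 and 0.294 CPM in MPS (log2 fold change 6.15 ± 0.83 SE, adjusted p = 0.00018). HOXC4, at 17.7 and 12.9 CPM in PPS and 0.0868 and 0.393 CPM in MPS (adjusted p = 0.0129), was not called without MPS replicate 1 (0.188) or MPS replicate 2 (0.0604). HOXA7, at 12.03 and 8.08 CPM in PPS and 0.391 and 0.540 CPM in MPS (adjusted p = 0.0173), was not called without PPS replicate 2 (0.0514), MPS replicate 1 (0.208) or MPS replicate 2 (0.0901). TFAP2A was at 4.43 and 10.5 CPM in MPS (log2 fold change 2.82 ± 0.42 SE, adjusted p = 0.000237) and WNT3A at 5.60 and 10.6 CPM (log2 fold change 2.59 ± 0.36 SE, adjusted p = 0.000105), both above MPS in each PPS library. With only the libraries compared, TFAP2A was not called (adjusted p = 0.0504). Of 17 amnion genes tested 3 were higher and 1 lower in PPS than in MPS. FBXL21P, a pseudogene by its symbol, was at 71.4 and 65.4 CPM in PPS and 1.56 and 6.18 CPM in MPS (log2 fold change 4.08 ± 0.73 SE, adjusted p = 0.00127), or adjusted p = 0.0511 without MPS replicate 1. TSTA3 was called at an identifier that holds 5.55% of its counts, while the sum over its identifiers was 38.9 and 44.7 CPM in PPS and 47.5 and 58.6 CPM in MPS, so that call is uncertain.

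Of 30 epithelial junction genes 9 were higher in PPS than in MPS and 0 lower, and of 30 mesenchymal genes 12 were lower and 0 higher. CDH1 was at 264 and 362 CPM in MPS (log2 fold change 1.26 ± 0.26 SE, adjusted p = 0.00455), a call lost without PPS replicate 2 (adjusted p = 0.0707) or MPS replicate 1 (0.129). SNAI1 was at 134 and 112 CPM in MPS (log2 fold change -1.30 ± 0.24 SE, adjusted p = 0.00157), with adjusted p = 0.0674 without PPS replicate 2 and 0.0765 with only the libraries compared. VIM was at 1251 and 695 CPM in MPS (log2 fold change -1.74 ± 0.33 SE, adjusted p = 0.00203), with adjusted p = 0.0803 without PPS replicate 2, 0.0992 without MPS replicate 1 and 0.0877 with only the libraries compared. The calls on these 3 genes thus depended on single libraries. CDX2 was at 151 and 176 CPM in MPS and did not pass the test (adjusted p = 0.0985). It was called higher in PPS with a replicate block (adjusted p = 0.0342), with only the libraries compared (0.033) and with no filter (6.18e-08).

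**Figure D5:**
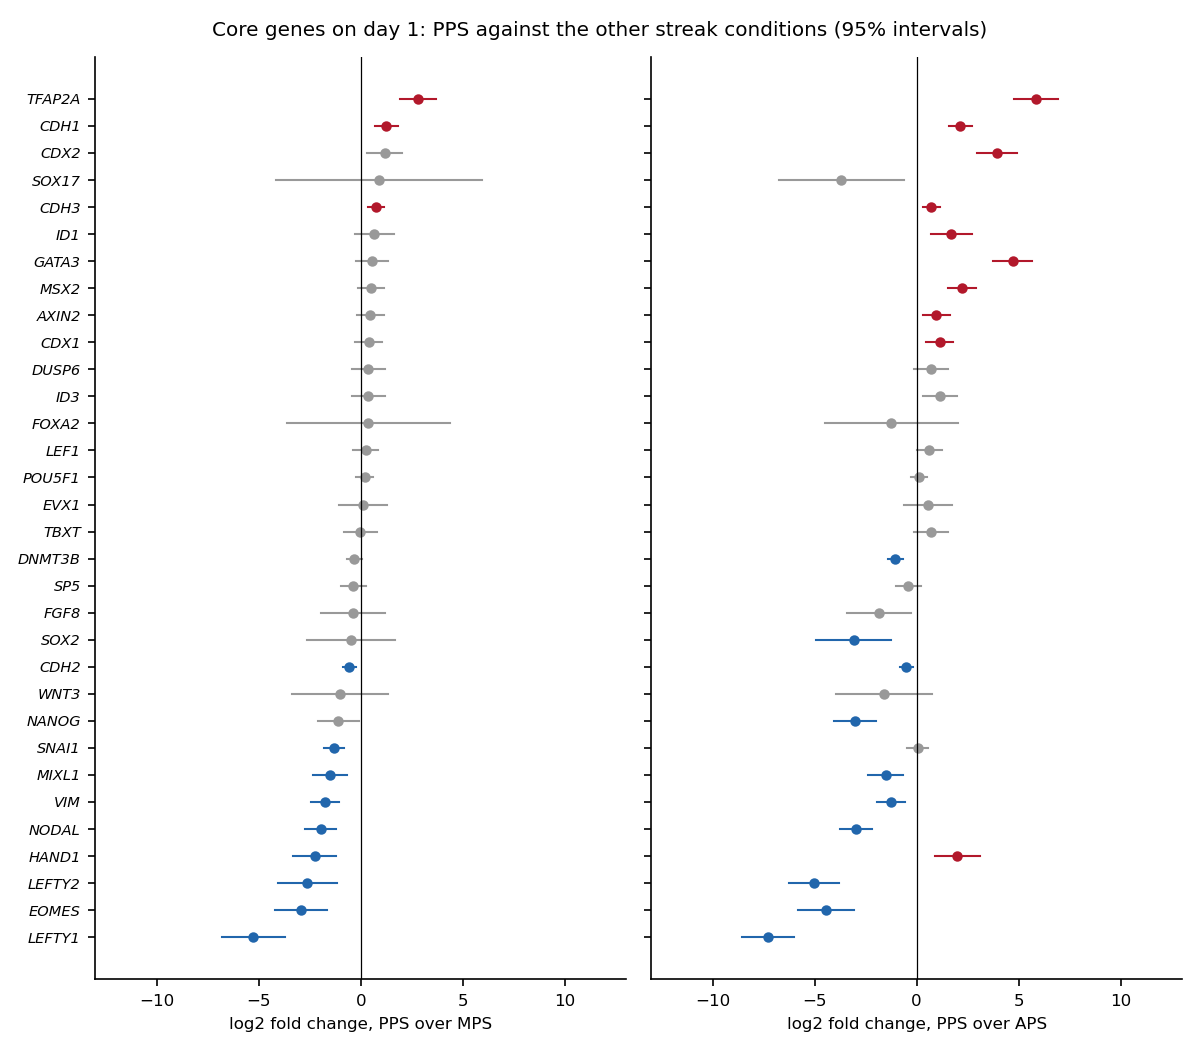
Log2 fold change of the 32 core genes in PPS over MPS (left) and PPS over APS (right) by edgeR, with 95% intervals; red points were higher in PPS, blue points lower, and gray points not called. EOMES and NODAL lie to the left in both panels and TFAP2A and CDH1 to the right.

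Against APS cells, which had activin, less CHIR99021 and no BMP4, 1306 genes were higher and 1307 lower in PPS, 14.6% of those tested, 7.3% in each direction. The total of 2613 was 1584 without PPS replicate 2 and 1482 without APS replicate 1. With only the PPS and APS libraries it was 1176, and with a replicate block added to that fit 3732, of which 1861 were higher and 1871 lower. Of 37 HOX genes tested 33 were higher and 0 lower, with a median log2 fold change of 4.83 with floor genes at their bound. HOXB6 was at 0.662 and 0.824 CPM in APS (log2 fold change 7.98 ± 0.56 SE, adjusted p = 3.65e-08), and PAX3 at 0 and 0.275 CPM (log2 fold change 8.66 ± 0.87 SE, adjusted p = 4.36e-07). Of 17 BMP targets and antagonists 12 were higher and 1 lower in PPS. MSX1 was at 136 CPM on average in APS (log2 fold change 2.40 ± 0.38 SE, adjusted p = 0.000104). Of 17 amnion genes tested 12 were higher and 2 lower, with TFAP2A at 0.615 and 1.20 CPM in APS (log2 fold change 5.85 ± 0.52 SE, adjusted p = 8.95e-08). CDH1 was at 149 and 194 CPM in APS (log2 fold change 2.15 ± 0.27 SE, adjusted p = 6.76e-06). Most BMP readouts, and CDH1 RNA, were thus above APS. The ID1 call was lost without PPS replicate 1 (log2 fold change 1.57) or without APS replicate 1 (1.92) or 2 (1.52). ID3, on the same list, did not pass the test but was called higher with a replicate block (adjusted p = 0.00456) and by DESeq2 (0.0206). GREM1, also on the list, was lower when summed over its identifiers (log2 fold change -1.96 ± 0.52 SE, adjusted p = 0.0104, a sum chosen after seeing the data). Among genes lower in PPS, CER1 was at 1159.6 and 569.5 CPM in APS (log2 fold change -12.17 ± 0.99 SE, adjusted p = 1.17e-07). CYP26A1 was at 116 and 52.1 CPM in APS (log2 fold change -8.61 ± 0.87 SE, adjusted p = 4.94e-07). EOMES was at 465 and 429.9 CPM in APS (log2 fold change -4.44 ± 0.65 SE, adjusted p = 4.65e-05). RGL2 and TCF19 were called at identifiers that hold 32.7% and 26.9% of their counts, and their sums were 46.8 and 58.5 CPM and 26.7 and 28.8 CPM in PPS and 43.6 and 46.5 CPM and 20.97 and 17.6 CPM in APS, so those calls are uncertain. The MPS and APS comparisons share the PPS libraries, and their values are set side by side only.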

How the data were processed

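Poly(A) RNA was sequenced as stranded paired-end libraries. The authors quantified reads against the GRCh38 transcriptome with Salmon 1.10.2 and summed transcripts to genes in R 4.4.2, and the deposited values are estimated counts per gene identifier, not normalized. Counts were rounded, and 17895 of 37951 identifiers passed edgeR's filterByExpr. The fit used R 4.3.3 and edgeR 4.0.16 with TMM scaling, 1 mean per condition over all 34 libraries (17 residual degrees of freedom), a quasi-likelihood test and Benjamini-Hochberg adjustment. The code was tested on simulated data with the same spread for every gene and 200 genes changed. Of changes of 1 on the log2 scale 13% were called, and of changes of 2, 89%. There were 2 unchanged genes called. A gene that did not pass may therefore still have changed by about 1 on that scale. Groups came from the labels. All columns of samples were matched. Split of reads over several identifiers of a symbol, common for genes with alternate haplotypes, lowers the value at each, and estimated counts can be shared between similar or overlapping genes. Gene positions come from GENCODE v44 (34979 identifiers matched) and promoters from RefSeq GRCh38.p14. Named genes were the 15 largest rises and 15 falls against the control and 5 each against MPS and APS (called, at least 10 CPM, libraries not overlapping), 32 core genes and up to 4 called members of each of 27 lists (526 genes), with members that did not pass where stated. Genes, lists and comparisons were chosen with earlier results of these data known. Alternatives were no filter, RLE scaling, a replicate block, a tested fold of at least 2, only the libraries compared, DESeq2 1.42.0, each library left out, and, chosen after seeing the data, identifiers of a symbol summed and only the libraries compared with the block. Folds against the floor do not cover spread between libraries, and cover counting error only where almost no counts were seen. Some genes are not reported here.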

Additional observations from a re-analysis of the deposited data

How the results depend on the processing

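No named result past the threshold changed sign under any alternative run. Of those that did not pass, some had another sign (log2 fold change) in some settings. TBXT against MPS was -0.01, but 0.0082 with RLE scaling or DESeq2 and 0.0034 with a replicate block. With the block and only the libraries compared it was 0.0058, and TCF19 against the control was -0.032. With each library left out, values against the control were -0.036 to 0.34 for DNMT1, -0.25 to 1.11 for DUSP6, 0 to 4.84 for HOXD12, -4.55 to 1.16 for MYCT1 and -1.34 to 1.05 for TCF19. Against MPS they were -0.47 to 0.90 for DUSP6, -0.21 to 0.34 for EVX1, -1.05 to 0.083 for FGF8, -0.73 to 5.12 for FOXA2, -1.30 to 0.20 for SOX2, -0.90 to 0.037 for SP5, -0.14 to 0.15 for TBXT and -1.63 to 0.19 for WNT3, and against APS -0.15 to 1.23 for DUSP6 and -0.36 to 0.35 for SNAI1. Against the control, 5338 genes were called, and a test for a fold of at least 2 left 1633 (1052 higher, 581 lower) and 190 of the 290 called list members. Leaving out each library in turn gave 3684 to 4589 genes, and the other settings 3676 to 6355. Against MPS, the 1098 genes (499 higher, 599 lower) became 1876 (922 and 954) with no filter, 1666 (821 higher) with DESeq2, 296 (135 and 161) with only the libraries compared and 116 (37 and 79) for a fold of at least 2. Leaving out each library gave 263 to 1338 (95 to 627 higher, 168 to 711 lower). Of 32 core genes 12 were called against MPS, 2 for a fold of at least 2, 5 with only the libraries compared, and 4 to 9 with each library left out. Against APS, the 2613 genes (1306 higher, 1307 lower) became 1176 (674 and 502) with only the libraries compared and 593 (336 and 257) for a fold of at least 2, and 1482 to 2318 with each library left out (702 to 1152 higher, 732 to 1166 lower). The 20 core genes called became 10 for a fold of at least 2 and 12 to 16 with each library left out. The cause of these changes was not tested, except that a test for a fold of at least 2 calls fewer genes by construction. Fits with fewer libraries did not always call fewer, since leaving out PPS replicate 1 gave the 1338 against MPS. The replicate numbers were not taken to pair the libraries, although libraries were deposited as separate sets by replicate number. Deviations of same-numbered libraries correlated at -0.07 for PPS and the control and at 0.15 for PPS and MPS. For PPS and APS the value was 0.20, with 2 pairs of libraries behind each value. Over all pairs of conditions the median was 0.08, from -0.07 to 0.34. These values cannot decide whether same-numbered libraries were handled together, so fits with a replicate block are given as well. Ribosomal protein genes took 3.83% and 2.52% of the counts in PPS replicates 1 and 2, 4.24% and 3.64% in MPS and 4.92% and 2.75% in APS. In the control they took 4.63% and 4.70%, so replicate 2 was not the lower there. Whether libraries differ by replicate number was not tested. With a replicate block 6355 genes were called against the control, 1717 (783 higher, 934 lower) against MPS and 3357 against APS. With the block and only the libraries compared, the numbers were 3676 against the control, 2488 (1209 higher, 1279 lower) against MPS and 3732 (1861 and 1871) against APS. Depth limits genes of few counts, for which only bounds on folds could be given.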
